A study of Urocitellus parryii with 44 samples.

Results

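The genes of the extracellular matrix and of the proteases that cut it were compared in brown adipose tissue of arctic ground squirrels between winter torpor and summer activity. Brown adipose tissue is the fat that hibernators burn to rewarm, and torpor is their state of lowered metabolism and body temperature. The members were chosen by name: every probe with a single gene symbol for a collagen, laminin, thrombospondin, Mmp, Timp, Adamts, fibulin, fibrillin or lysyl oxidase gene, and for Fn1, Sparc, Dcn, Bgn, Lum, Eln, Nid1 and Nid2. This gave 189 of the 38400 probes and 84 of the 11786 gene symbols on the membranes. Tissue of 3 summer active animals, taken in August, and of 5 animals in winter torpor was labelled with radioactive phosphorus and hybridised to 4 membranes of mouse cDNA probes called MA07, MA08, MA10 and MA11. Split RNA from torpid animal 5 and from summer animals 1 and 2 was hybridised in duplicate columns a and b, whose log2 values were averaged. The labels give no age, sex or strain and no month for the winter animals, and season and activity state changed together, so these cannot be told apart. The symbols are those of the mouse probes, of which 81 of the 84 match a symbol or synonym in the squirrel's RefSeq annotation, and the signal that related squirrel transcripts, such as other collagens, give on a mouse probe was not tested.

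The extracellular matrix is the protein scaffold between cells. Fibrillar collagens form its cables, while collagen IV, laminins and nidogens build the basement membrane, a thin sheet that surrounds every adipocyte and capillary. Small proteoglycans, fibronectin and the matricellular proteins Sparc and thrombospondins bind to this scaffold and to cell receptors. Lysyl oxidases crosslink collagen and elastin, matrix metalloproteinases and Adamts proteases cut the scaffold, and Timps inhibit the metalloproteinases. In fat, this turnover accompanies the swelling and shrinking of adipocytes and the growth of vessels.

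No matrix gene passed the threshold between torpor and summer, and the values nearest to it were lower in torpor for Sparc, Mmp14 and Thbs1 and higher for Col5a3. By limma, 0 of the 182 member probes that could be tested had an adjusted p under 0.05, against 0.309% of all 37848 probes. With each gene taken as the mean over its probes, 0 of 82 member genes passed, against 0.178% of 11214 genes. All differences below are torpor minus summer on the log2 scale, levels are log2 of the spot intensity over the median of its column, and adjusted p-values are by limma with Benjamini-Hochberg adjustment over all genes or all probes. The smallest adjusted p was 0.11 among the member probes and 0.15 among the member genes. At an unadjusted p under 0.05 there were 27 member probes (14.8%), where all probes gave 11.6%, and 8 member genes (9.76%), where all genes gave 12.2%. Of these 8 genes 6 were lower (7.32% of the 82), where 5.12% of all genes were. The other 2 were higher (2.44% of the 82), where 7.06% of all genes were.

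The probes at an unadjusted p under 0.05 were divided unevenly by direction, with 19 lower and 8 higher in torpor. Over all probes 5.18% were lower and 6.39% higher at that p. Of the 19 lower member probes 7 belong to Sparc, and without Sparc 12 of 170 (7.06%) remained. The groups did not overlap for 21 member probes (11.5%), against 8.50% of all probes, and for 8 member genes (9.76%), against 8.13% of all genes. Among them were 15 member probes that were lower (8.24%), where 4.13% of all probes were. A further 6 were higher (3.30%), where 4.37% of all probes were. Of the 15 lower probes 5 belong to Sparc, and without Sparc 10 of 170 (5.88%) remained. Among the member genes 7 were lower without overlap (8.54%), namely Sparc, Thbs1, Mmp14, Adamts10, Loxl1, Timp2 and Col4a1, where 3.67% of all genes were. Col5a2 alone was higher without overlap (1.22%), where 4.47% of all genes were.

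As a whole the members lay near 0. The median was -0.058 over member probes and 0.000065 over all probes, and -0.027 over member genes and 0.0088 over all genes. Positive values were found in 78 of the 182 member probes, or 42.9%, and in 50.0% of all probes. They were found in 39 of the 82 member genes, or 47.6%, and in 51.2% of all genes. The gene differences ran from -0.80 for Sparc to 0.75 for Col10a1, and their median standard error was 0.23. For 57 of the 82 genes the 95% interval lay within 1 of 0 on the log2 scale, and for the other 25 it did not. The smallest difference among the genes that passed over the whole series was 1.29 in size, larger than the difference of any matrix gene. In bulk tissue fewer cells of a type and less RNA per cell cannot be told apart, for these genes as for any other. The labels name the animals as separate samples, and the number of animals, 3 in summer and 5 in torpor, limits the precision. The membranes and duplicate columns repeat the RNA of the same animals.

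**Figure D1:**
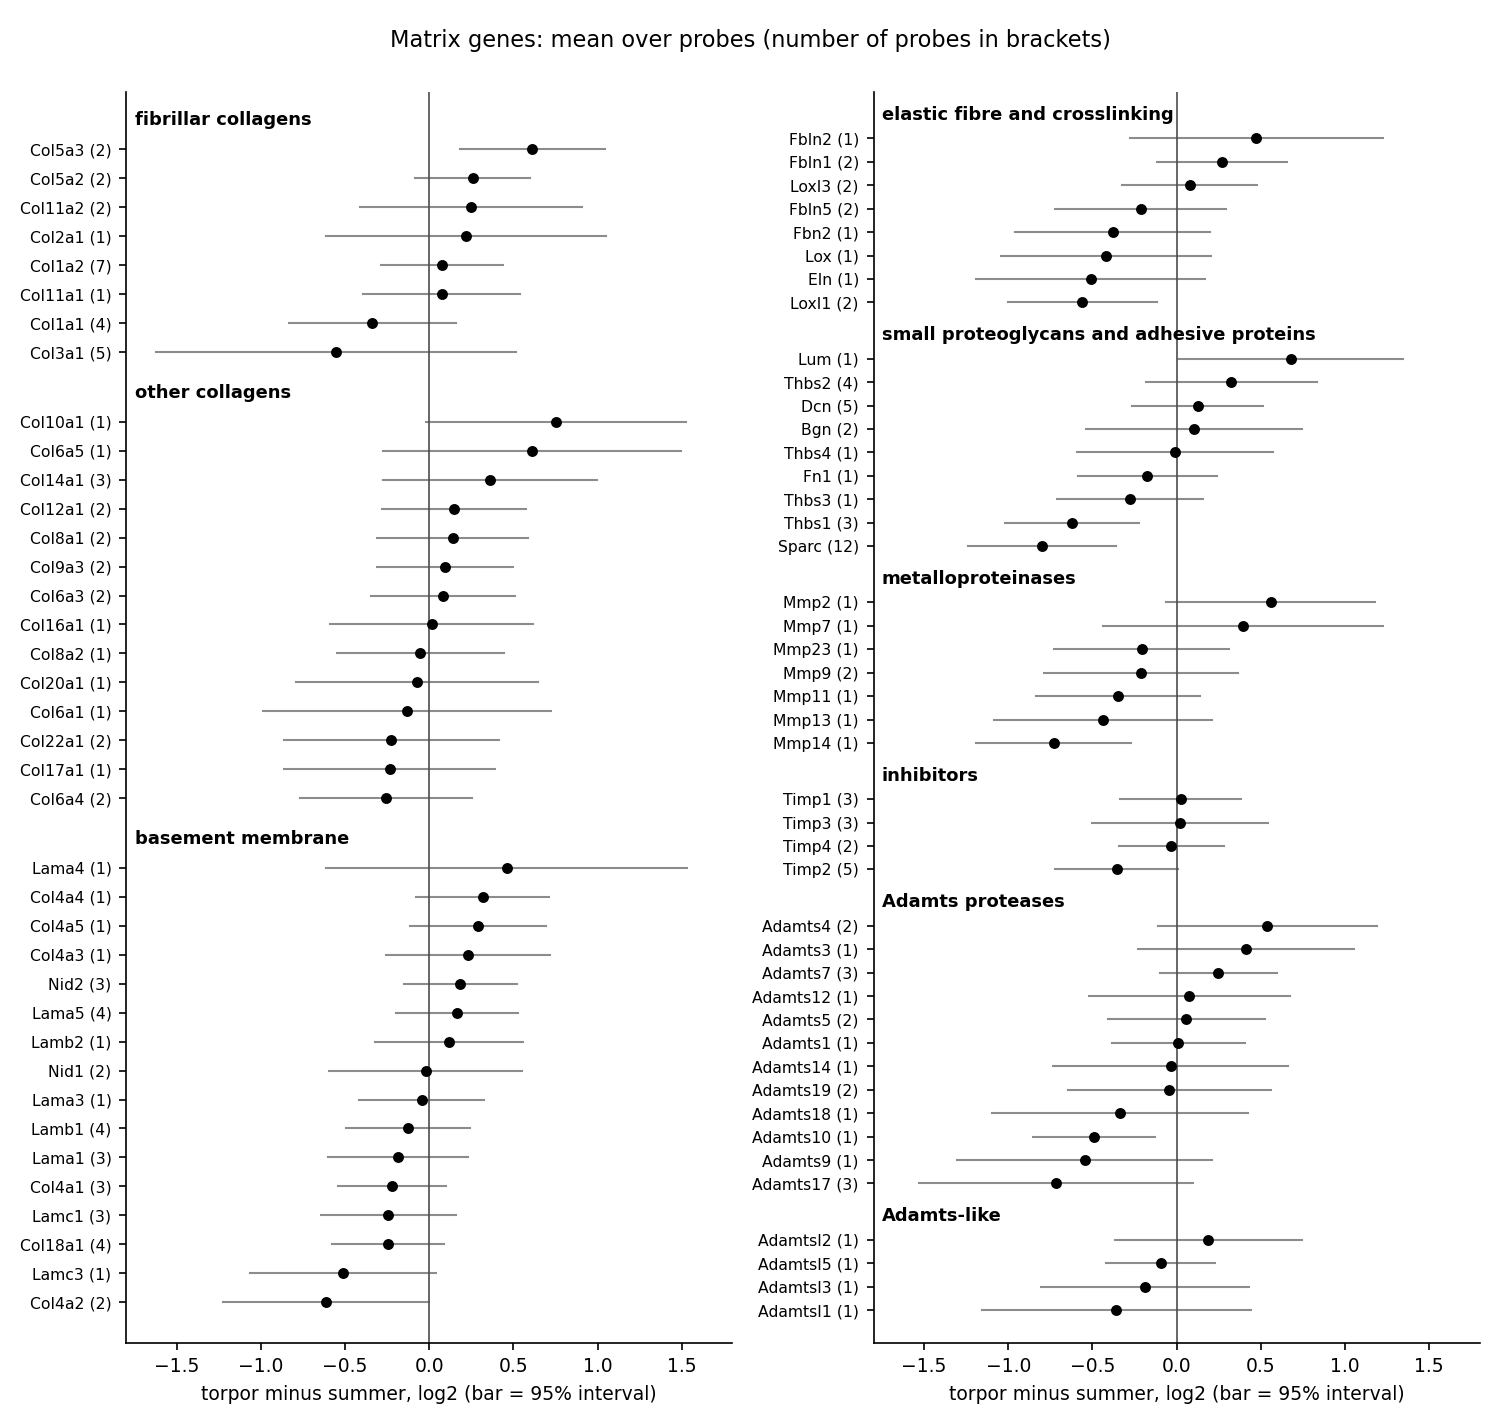
The horizontal axis gives torpor minus summer on the log2 scale for the 82 member genes, each a mean over the number of probes in brackets, with its 95% interval from the limma fit, grouped by role. Intervals lie clear of 0 for 8 genes, and Sparc at -0.80 and Col10a1 at 0.75 mark the ends.

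Sparc, a secreted collagen-binding protein that regulates how collagen is assembled and how cells adhere to it, gave the smallest p of the matrix genes. The mean over its 12 probes was 3.17, 2.84 and 3.36 in the 3 summer animals and 2.34, 2.51, 2.50, 1.90 and 2.37 in the 5 torpid animals. Every torpid animal lay below every summer animal, and torpid animal 4 was the lowest. The difference was -0.80 ± 0.20 (SE), or 1.74-fold lower, with a 95% interval of -1.24 to -0.36 and an adjusted p of 0.15. The group levels were 3.12 ± 0.27 (SD, n = 3) in summer and 2.33 ± 0.25 (SD, n = 5) in torpor. Over the alternatives the difference ran from -0.99 to -0.66 and the adjusted p by limma from 0.12 to 0.53.

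The Sparc probes did not all give the same difference, and none passed the threshold. They come from 10 clones on all 4 membranes, and 10 of the 12 were negative. In 7 probes the difference lay between -1.84 and -0.80, and each of these had an unadjusted p under 0.05, with no overlap in 5 of them. The other 5 lay between -0.31 and 0.29. Probe 2341 on MA10, the member probe with the smallest adjusted p (0.11), gave 2.58, 1.09 and 1.76 in the 3 summer animals and 0.20, 0.25, 0.47, 0.082 and 0.23 in the 5 torpid animals. The torpid animals lay close together there and below all summer animals, with a difference of -1.56 ± 0.39 (SE). Probe 598 on MA10 gave 6.77, 5.83 and 6.01 in the 3 summer animals and 5.36, 4.0, 5.00, 2.72 and 4.75 in the 5 torpid animals. Its difference was -1.84 ± 0.52 (SE), and torpid animal 4 again stood lowest, as it did in 5 of the 12 probes. A probe of the same clone on MA11, probe 1280, gave -1.46, with overlap between the groups. Probe 7279 on MA08 gave 4.29, 3.19 and 5.45 in the 3 summer animals and 2.96, 3.01, 3.18, 0.97 and 2.39 in the 5 torpid animals. Its groups were separated only narrowly, between a summer value of 3.19 and a torpid value of 3.18. Probe 161 on MA07 gave 1.90, 1.24 and 1.98 in the 3 summer animals and 0.39, 1.07, 1.22, -0.17 and 0.89 in the 5 torpid animals. Torpid animal 4 was once more the lowest, and torpid animal 3 lay just under summer animal 2.

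Against these stood Sparc probe 1000 on MA07, with a difference of -0.014. It gave 2.45, 2.64 and 1.76 in the 3 summer animals and 2.23, 2.29, 2.05, 2.32 and 2.46 in the 5 torpid animals, with full overlap. Probe 2469 on MA08 had the highest difference, 0.29, with summer animal 1 low and the rest mixed. The mean Sparc difference was negative on all 4 membranes, at -0.31 for the MA07 probes, -0.76 for those of MA08, -0.98 for MA10 and -1.13 for MA11.

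The brightest Sparc probe on MA11, 7508, lies in a range of signal that was lower in torpor as a whole on that membrane. It gave 7.48, 7.77 and 7.62 in the 3 summer animals and 7.05, 6.64, 6.79, 6.74 and 6.92 in the 5 torpid animals, a difference of -0.80 ± 0.22 (SE) with no overlap. Of the 192 brightest probes of MA11, the top 2%, 172 were lower in torpor, with a median of -0.56. Quantile normalization took this probe to -0.27 and cyclic loess to -0.29. The gene mean of Sparc stayed at -0.74 and -0.81 under the same scalings and was -0.66 without the probes of the brightest 2% of each membrane.

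**Figure D2:**
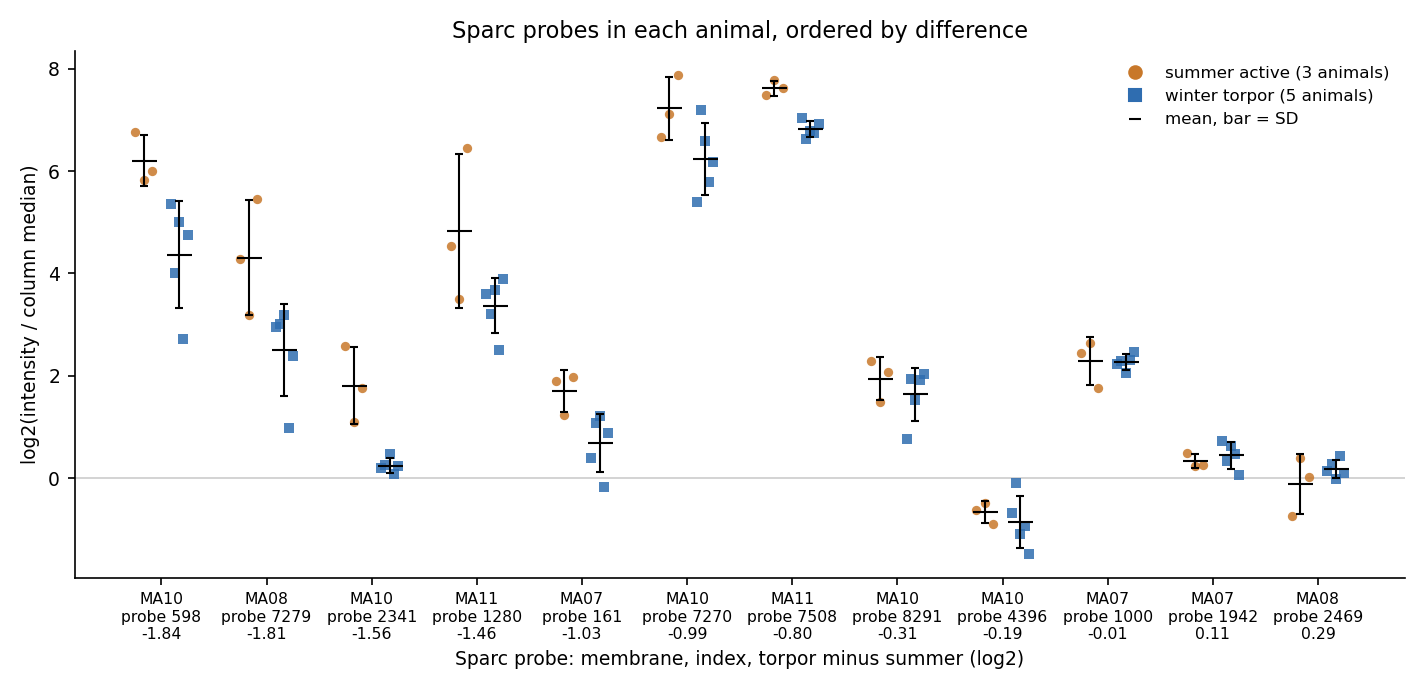
Each Sparc probe is shown by membrane and index along the horizontal axis, ordered by its difference, with the log2 level of each animal on the vertical axis and the group mean with its SD. In the 5 probes at -1.84, -1.81, -1.56, -1.03 and -0.80 all torpid animals lie below all summer animals, and in the others the groups overlap.

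Thbs1, an adhesive glycoprotein that activates latent TGF-beta and restrains vessel growth, was the only other gene of the adhesive group without overlap. Its 3 probes were all negative and their mean was 1.42, 1.79 and 1.46 in the 3 summer animals and 0.91, 1.13, 1.15, 0.64 and 0.85 in the 5 torpid animals. The difference was -0.62 ± 0.18 (SE), or 1.54-fold lower, with an adjusted p of 0.21. The 2 MA08 spots of the same clone gave -0.85 and -0.66, both without overlap, and the MA11 clone gave -0.36 with overlap. Thbs1 was lower in torpor under all alternatives run, from -0.85 to -0.49. The other thrombospondins went both ways, with Thbs2 at 0.33, Thbs3 at -0.27 and Thbs4 at -0.0092. The Thbs2 mean holds an MA10 probe at 1.14, whose clone gave -0.064 on MA11. The Thbs3 value is that of its MA08 probe alone, and the same clone on MA11, not in the mean, gave 0.68. Without summer animal 3 Thbs2 was at 0.025.

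Lum (lumican), a small leucine-rich proteoglycan that spaces collagen fibrils, stood higher in torpor by its single probe. It gave 0.20, 0.89 and -0.65 in the 3 summer animals and 0.62, 0.84, 0.90, 0.61 and 1.14 in the 5 torpid animals. The torpid animals lay together, while summer animal 2 matched them and summer animal 3 was far below, so the groups overlapped. The difference was 0.68 ± 0.30 (SE) with an adjusted p of 0.41, and it was 0.28 without summer animal 3. Dcn (decorin), a proteoglycan of the same family whose gene neighbours Lum in the squirrel annotation, gave 0.13 ± 0.18 (SE) over 5 probes, and Bgn (biglycan) 0.10 ± 0.29 (SE) over 2. Fn1 (fibronectin), which links collagen to integrins, gave -0.011, -0.10 and -0.26 in the 3 summer animals and -0.40, -0.26, 0.076, -0.25 and -0.64 in the 5 torpid animals by its single probe, with overlap and a difference of -0.17 ± 0.19 (SE). Of the 9 genes in this group 4 were positive and 5 negative, with a median of -0.0092.

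**Figure D3:**
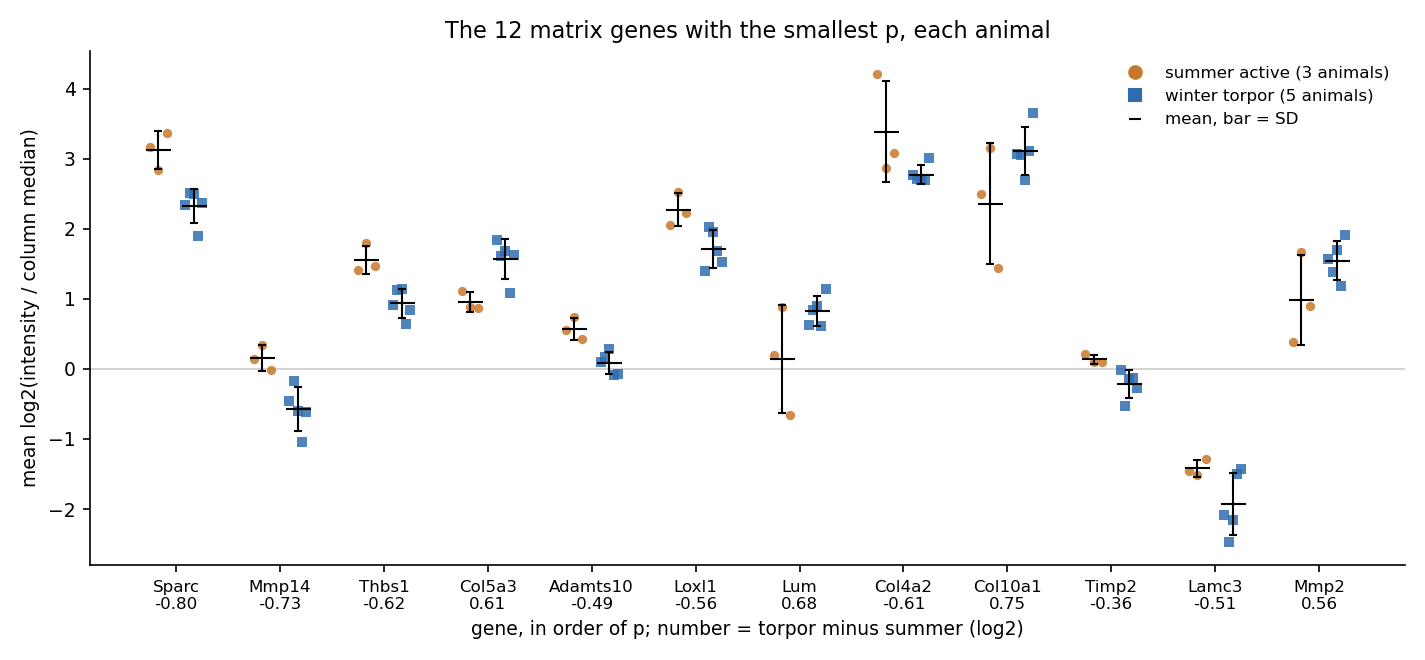
The vertical axis gives the log2 level of each animal, as the mean over a gene's probes, for the 12 matrix genes with the smallest p, with group means and SDs. Sparc, Mmp14, Thbs1, Adamts10, Loxl1 and Timp2 show all 5 torpid animals below the 3 summer animals, and the remaining 6 genes overlap.

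Of the 8 fibrillar collagen genes 6 were positive and 2 negative, with a median of 0.15 and none past the threshold. Their probes were evenly divided, with 13 of 26 positive and a median of -0.025. The 2 negative genes, Col1a1 and Col3a1, encode chains of the most abundant cables, collagen I and III. Col1a1 gave 0.51, 0.21 and 1.15 in the 3 summer animals and 0.24, 0.43, 0.51, 0.020 and 0.24 in the 5 torpid animals. Summer animal 3 was the highest and the groups overlapped, with a difference of -0.34 ± 0.22 (SE) over 4 probes (adjusted p = 0.57). Without summer animal 3 the Col1a1 difference was -0.077. Col3a1 gave 1.4, -0.13 and 1.91 in the 3 summer animals and 0.11, 0.35, 1.54, -0.21 and 0.74 in the 5 torpid animals. The spread within both groups was wide, and the difference of -0.55 ± 0.48 (SE) over 5 probes had a 95% interval of -1.62 to 0.51. It was -1.15 without summer animal 2 and -0.13 without summer animal 3.

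Col1a2, the partner chain of Col1a1 in collagen I, had the most probes of the fibrillar genes. Its 7 probes averaged 0.017, 0.23 and -0.075 in the 3 summer animals and 0.18, 0.15, 0.37, -0.061 and 0.021 in the 5 torpid animals. The groups overlapped, and the difference of 0.075 ± 0.16 (SE) had a 95% interval of -0.29 to 0.44. The Col1a2 probes ran from -0.36 to 0.78, both ends on MA11. The upper one, probe 2328, gave 1.0, 1.82 and 1.19 in the 3 summer animals and 2.30, 1.76, 2.45, 1.68 and 2.40 in the 5 torpid animals, with an adjusted p of 0.31. MA11 also held probes whose symbols are written in capitals as for human genes and which the naming rule leaves out. COL1A1, COL1A2 and COL3A1 gave 0.25 ± 0.45 (SE), 0.15 ± 0.30 (SE) and -0.49 ± 0.65 (SE) there, and TIMP1 0.22 ± 0.37 (SE).

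Col5a3 and Col5a2 encode chains of collagen V, which starts fibril assembly, and neither passed the threshold. Col5a3 gave 1.12, 0.88 and 0.86 in the 3 summer animals and 1.84, 1.61, 1.68, 1.09 and 1.62 in the 5 torpid animals. Torpid animal 4, at 1.09, lay just below summer animal 1, at 1.12, and the other torpid animals lay above all summer animals. The difference was 0.61 ± 0.19 (SE), or 1.53-fold, with an adjusted p of 0.25, and both probes were positive (0.75 and 0.48). Col5a2 gave -0.28, -0.070 and -0.14 in the 3 summer animals and -0.029, -0.023, 0.29, 0.081 and 0.15 in the 5 torpid animals, with no overlap but a small gap and a difference of 0.26 ± 0.15 (SE) (adjusted p = 0.53). This is the mean of 2 Col5a2 probes, at 0.053 and 0.46. The remaining probe, at -0.42, had no value in torpid animal 1 and was not in it. Without torpid animal 1 that probe entered the mean and Col5a2 was at 0.051. The cartilage collagens Col2a1, Col11a1 and Col11a2 gave 0.22, 0.073 and 0.25, each with overlap.

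Of the 14 other collagens 8 were positive, and none had groups without overlap. Col10a1, a network collagen best known from growing cartilage, had the largest positive difference of the matrix genes, 0.75 ± 0.35 (SE) by a single probe. It gave 2.50, 3.15 and 1.44 in the 3 summer animals and 3.07, 3.05, 2.70, 3.11 and 3.65 in the 5 torpid animals. Summer animal 3 was the lowest by far and summer animal 2 lay among the torpid animals. Without summer animal 2 the Col10a1 difference was 1.15 and without summer animal 3 it was 0.29. Quantile normalization gave 0.40 and cyclic loess 0.25 for Col10a1. For collagen VI, the microfibril collagen around adipocytes, Col6a1 gave -0.13 and Col6a3 0.083. The 2 Col6a3 probes, both on MA11, pointed in opposite directions, at 0.82 ± 0.28 (SE) and -0.65 ± 0.25 (SE), each with an unadjusted p under 0.05. Col6a5 likewise gave -1.01 ± 0.22 (SE) on MA07, without overlap, and 0.61 ± 0.45 (SE) on MA10. The MA07 probe was among the dimmest of its membrane, at a signal percentile of 2.14, and its difference was -0.015 once values below the 10th percentile were raised to it.

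Col14a1, a collagen that associates with fibrils, held the member probe with the largest positive difference. Probe 2267 on MA10 gave 5.82, 2.85 and 2.90 in the 3 summer animals and 6.0, 5.62, 4.4, 4.91 and 6.09 in the 5 torpid animals. Summer animal 1 lay among the torpid animals and the other summer animals far below, for a difference of 1.55 ± 0.60 (SE) and an adjusted p of 0.33. Without summer animal 1 the difference was 2.53 ± 0.50 (SE) with an adjusted p of 0.026 by limma, the only call of a member probe in the alternatives run. Its adjusted p over all alternatives ran from 0.026 to 0.66, and it was named after its values were seen. The other Col14a1 probes gave -0.035 on MA08 and -0.43 on MA11, and the gene mean over all 3 was 0.36 ± 0.29 (SE). Fibril-associated Col12a1 and Col16a1 gave 0.15 and 0.014.

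The basement membrane genes were divided, with 7 of 16 positive, a median of -0.033 and none past the threshold. Col4a1 and Col4a2, neighbouring genes for the chains of the common collagen IV, were both negative. Col4a1 gave 0.97, 0.72 and 0.92 in the 3 summer animals and 0.64, 0.66, 0.61, 0.63 and 0.70 in the 5 torpid animals over 3 probes. The torpid animals lay within 0.61 to 0.70 and below all summer animals, although the difference was only -0.22 ± 0.14 (SE) (adjusted p = 0.57). The 3 probes in this mean gave -0.20, 0.13 and -0.59, and each taken alone overlapped between the groups. A dim Col4a1 probe on MA10, at a signal percentile of 0.34 and not in this mean, gave 1.26 ± 0.45 (SE), without overlap. Raising all values below the 10th percentile to it took that probe to 0.19. When torpid animal 1 was left out, that dim probe had values in all remaining animals and entered the mean, which then stood at 0.15. Col4a2 gave 4.21, 2.87 and 3.09 in the 3 summer animals and 2.76, 2.72, 2.69, 2.70 and 3.01 in the 5 torpid animals. Summer animal 1 stood above the rest, and without it the difference of -0.61 ± 0.28 (SE) was -0.20. Col4a3, Col4a4 and Col4a5, chains of specialised basement membranes, were positive at 0.23, 0.32 and 0.29.

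Laminins, the cross-shaped glycoproteins that anchor cells to the basement membrane, gave 8 genes in the gene fit. Lama4, a chain of adipocyte and vessel laminin, gave 0.46, 0.076 and 0.13 in the 3 summer animals and 1.91, 0.60, -0.30, -0.29 and 1.48 in the 5 torpid animals by 1 probe. The torpid animals spanned the widest range of the matrix genes named here, and the interval of the difference ran from -0.61 to 1.53. Lamc1, the chain shared by most laminins, gave -0.24 ± 0.18 (SE), Lamb1 -0.12 ± 0.17 (SE), Lamb2 0.12 ± 0.20 (SE) and Lama5 0.16 ± 0.16 (SE). Lamc3 gave -1.45, -1.52 and -1.29 in the 3 summer animals and -2.09, -2.46, -2.16, -1.5 and -1.43 in the 5 torpid animals, where torpid animals 4 and 5 lay within the summer values and the other 3 below, for a difference of -0.51 ± 0.25 (SE). Lama1 gave -0.18 ± 0.19 (SE) as a gene, and its very bright MA11 probe, 91, gave 7.41, 7.87 and 7.0 in the 3 summer animals and 6.46, 6.66, 6.77, 6.30 and 6.27 in the 5 torpid animals. That difference, -0.93 ± 0.25 (SE), falls in the same bright MA11 range as Sparc probe 7508 and was -0.36 with quantile normalization and -0.48 with cyclic loess. Nid1 and Nid2, the nidogens that join laminin to collagen IV, gave -0.022 ± 0.26 (SE) and 0.18 ± 0.15 (SE). Col18a1, the source of endostatin, gave 0.30, 0.0051 and 0.14 in the 3 summer animals and -0.14, -0.18, 0.056, -0.14 and -0.077 in the 5 torpid animals over 4 probes, with overlap between summer animal 2 and torpid animal 3.

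Elastic fibre and crosslinking genes had the lowest median of the role groups, -0.30, with 3 of 8 positive and none past the threshold. Loxl1, which crosslinks elastin, gave 2.06, 2.53 and 2.23 in the 3 summer animals and 1.39, 2.03, 1.95, 1.68 and 1.52 in the 5 torpid animals over 2 probes. The lowest summer animal, at 2.06, lay just above the highest torpid animal, at 2.03. The difference was -0.56 ± 0.20 (SE), or 1.47-fold lower, with an adjusted p of 0.30. The probes on MA08 and MA10 gave -0.49 and -0.62, and each taken alone overlapped between the groups. Lox itself, the crosslinker of collagen and elastin, gave 1.16, 0.50 and 0.095 in the 3 summer animals and -0.40, 0.51, 0.43, -0.036 and 0.32 in the 5 torpid animals. Summer animal 1 was highest and torpid animal 1 lowest, with overlap among the rest and a difference of -0.42 ± 0.28 (SE). Without summer animal 1 the Lox difference was -0.13. Eln (elastin) gave 0.83, -0.45 and -0.35 in the 3 summer animals and -0.18, -0.89, -0.22, -0.41 and -0.78 in the 5 torpid animals, and its difference of -0.51 ± 0.31 (SE) was -0.098 without summer animal 1 and -0.043 with low values raised to the 10th percentile. Loxl3 gave 0.077, Fbn2 -0.38, and the fibulins Fbln1, Fbln2 and Fbln5 gave 0.27, 0.47 and -0.21.

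Mmp14, the membrane-bound metalloproteinase that cuts collagen and activates pro-Mmp2, stood lower in torpor. Probe 9064 on MA08 gave 0.14, 0.35 and -0.017 in the 3 summer animals and -0.46, -0.17, -0.60, -1.04 and -0.61 in the 5 torpid animals. All torpid animals lay below all summer animals. The difference was -0.73 ± 0.21 (SE), or 1.66-fold lower, with a 95% interval of -1.19 to -0.27 and an adjusted p of 0.20. The other Mmp14 probe, dim and without a value in summer animal 3, gave -0.28 ± 0.42 (SE). Mmp2, its gelatinase substrate, pointed the other way by 1 probe, at 0.39, 1.67 and 0.90 in the 3 summer animals and 1.57, 1.38, 1.69, 1.18 and 1.91 in the 5 torpid animals. Summer animal 1 was low and summer animal 2 lay among the torpid animals, for a difference of 0.56 ± 0.28 (SE). Without summer animal 2 the Mmp2 difference was 0.90 and without summer animal 1 it was 0.26. Mmp9, the gelatinase of inflammatory cells, gave -0.21 ± 0.26 (SE) over 2 probes. A further Mmp9 probe, on MA07 and not in that mean, gave 0.74. The remaining metalloproteinases ran from -0.43 for Mmp13 to 0.39 for Mmp7. In all, 2 of 7 genes were positive and the median was -0.21.

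Among the inhibitors Timp2, which blocks Mmp2 and also takes part in its activation by Mmp14, was lower in torpor over 5 probes that were all negative. The mean was 0.21, 0.10 and 0.11 in the 3 summer animals and -0.0093, -0.53, -0.15, -0.13 and -0.27 in the 5 torpid animals. The groups did not overlap, and the difference was -0.36 ± 0.16 (SE) with an adjusted p of 0.42. Its probes ran from -0.65 to -0.078, and each probe taken alone overlapped between the groups. Timp1, Timp3 and Timp4 were at 0.024, 0.020 and -0.031, with standard errors of 0.16, 0.23 and 0.14, and each took the other sign in at least 1 alternative. Timp3, the Timp that is bound to the matrix, gave 0.40, 0.28 and 0.88 in the 3 summer animals and 0.58, 0.45, 1.12, 0.20 and 0.35 in the 5 torpid animals, with overlap.

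The Adamts proteases, which cut proteoglycans and process procollagen, were evenly divided at 6 positive and 6 negative of 12, with a median of -0.012. Adamts10, which binds fibrillin microfibrils, gave 0.55, 0.74 and 0.43 in the 3 summer animals and 0.10, 0.17, 0.29, -0.090 and -0.066 in the 5 torpid animals by its MA07 probe. The groups did not overlap, with a difference of -0.49 ± 0.16 (SE) and an adjusted p of 0.26. Its dim MA11 probe gave -0.86 ± 0.41 (SE). Adamts17 gave -0.044, -0.59 and -0.53 in the 3 summer animals and -1.71, -0.35, -0.77, -2.01 and -0.68 in the 5 torpid animals, all 3 probes being negative. Torpid animals 1 and 4 were far below the rest, and the difference was -0.72 ± 0.37 (SE). The 2 MA10 probes of Adamts17 gave -1.02 and -0.98, and its brighter MA07 probe gave -0.15 ± 0.23 (SE). Adamts7 was positive in all 3 probes, from 0.16 to 0.37, with a gene difference of 0.25 ± 0.16 (SE). The versican- and aggrecan-cutting proteases Adamts1, Adamts4, Adamts5 and Adamts9 gave 0.010, 0.54, 0.058 and -0.55. The 4 Adamts-like genes, whose proteins lack the protease domain, ran from -0.36 to 0.19.

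Probes of the same matrix gene did not always share a sign. Of 24 member genes with at least 3 tested probes, 4 had a single sign in all of them (16.7%), and 23.1% of the 3517 such genes in the series did. Thbs1, Timp2 and Adamts17 were negative throughout and Adamts7 positive throughout. Over probes with values in all 8 animals, pairs of member probes from different clones of a gene shared a sign in 110 of 188 cases (58.5%), with a median gap of 0.50. Over all genes such pairs shared a sign in 53.8%, with a median gap of 0.38. Member pairs from the same clone shared a sign in 6 of 10, with a median gap of 0.34, and those of all genes in 64.4%, with a gap of 0.30. As a description over 8 animals, with probes of a gene sharing the RNA of each animal, the median correlation of animal levels in these member pairs was 0.50 for the same clone and 0.082 for different clones. Over all genes these medians were 0.26 and 0.061. Duplicate columns of the same RNA differed on member probes by a median of 0.25 to 0.51 on MA07, MA08 and MA11. On MA10 the median was 0.81 in both summer animals and 0.44 in torpid animal 5.

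**Figure D4:**
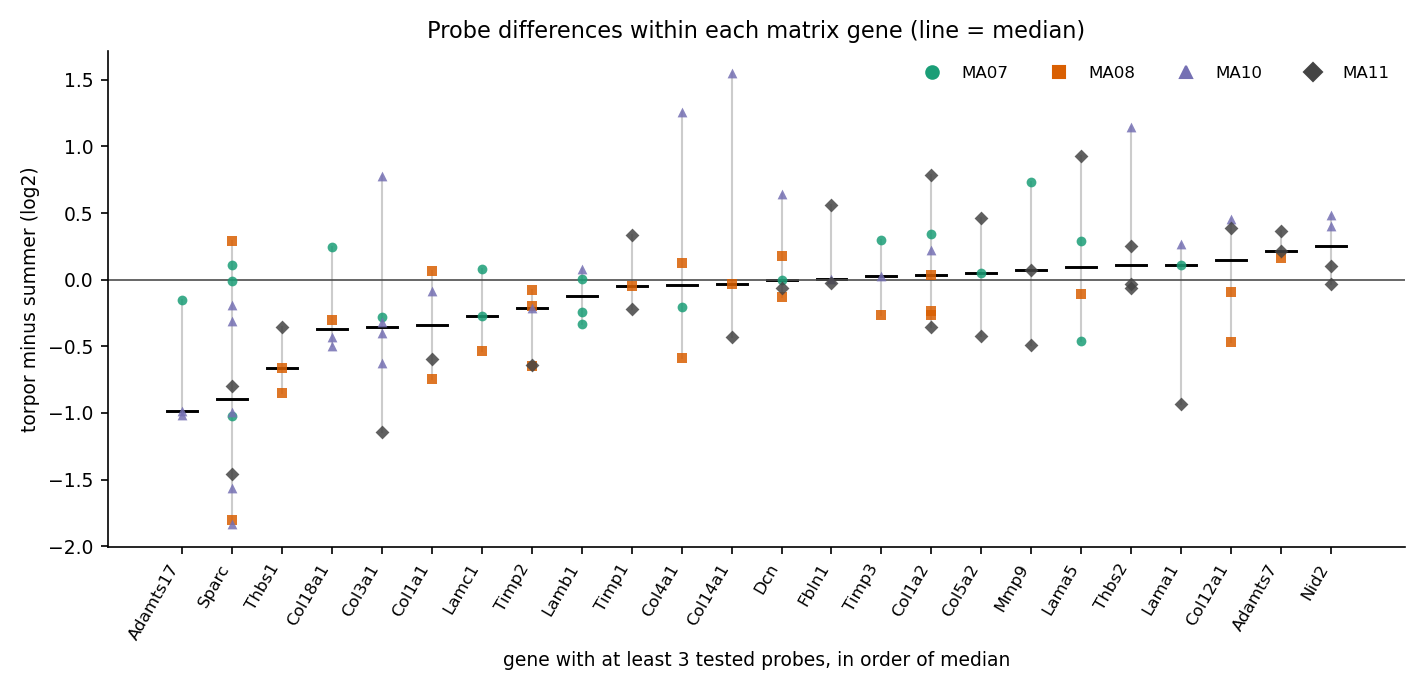
Each point is the torpor minus summer difference of a probe on the log2 scale, with the membrane given by shape and colour, for the 24 matrix genes with at least 3 tested probes in order of their median, which the black line marks. Points lie on both sides of 0 for all but Thbs1, Timp2, Adamts17 and Adamts7, and Sparc spans -1.84 to 0.29.

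Genes that act on or around the matrix but lie outside the naming rule gave no call either. The 55 genes measured were those for collagen processing, matrix receptors, TGF-beta signalling, the plasminogen system and other matrix proteins. Of these 22 were positive and 33 negative, with a median of -0.13. Over all genes 51.2% were positive and the median was 0.0088. By limma 0 of the 55 passed and 5 had an unadjusted p under 0.05. Of all genes 0.178% passed and 12.2% had an unadjusted p under 0.05. Smad7, the inhibitor of TGF-beta signalling, had the largest difference. Its MA11 probe gave 6.73, 7.26 and 7.13 in the 3 summer animals and 5.68, 4.72, 5.11, 5.73 and 6.16 in the 5 torpid animals, without overlap. The difference was -1.56 ± 0.31 (SE) with an adjusted p of 0.09, on a probe within the bright range of MA11 that was lower as a whole, and its dim MA08 probe gave -0.088. P4ha1, the collagen prolyl hydroxylase subunit, stood higher without overlap (0.99 ± 0.32 (SE), adjusted p = 0.26). The P4ha1 probes ran from -0.15 to 1.55, and the highest is among the brightest 2% of MA07, where 54 of 192 probes were lower in torpor and the median was 0.45. Itgb1, the integrin chain common to most collagen and laminin receptors, did too (0.60 ± 0.19 (SE), adjusted p = 0.25), with probes from -0.61 to 1.5. Plaur and Mfap4 stood at -0.56 and -0.46. Itgav stood at -0.51 by a single probe in the bright range of MA11, whose median was -0.56. Tgfb1, Tgfb2 and Tgfb3 lay at 0.015, 0.081 and -0.16.

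Markers of the cells that make matrix overlapped between the groups as lists. The mean level of 8 of 10 fibroblast and stroma markers measured ran from 0.32 to 0.68 in summer and from 0.20 to 0.67 in torpor. That of 7 of 10 endothelial markers ran from -0.57 to -0.39 in summer and from -0.67 to -0.19 in torpor, and that of all 6 smooth muscle and pericyte markers from 0.99 to 1.25 in summer and from 1.0 to 1.46 in torpor. For 6 of 10 immune markers it ran from 0.95 to 1.51 in summer and from 0.98 to 1.22 in torpor. Among 4 of 8 skeletal muscle markers it ran from -0.46 to 0.47 in summer and from -0.52 to 0.11 in torpor, for 6 of 8 nerve markers from 0.22 to 0.65 in summer and from 0.33 to 0.75 in torpor and for 2 of 4 erythroid markers from 0.51 to 1.45 in summer and from -0.10 to 1.45 in torpor. No gene of these lists passed the threshold. A list mean can hide genes that differ in opposite directions. Of the immune genes 3 were positive and 3 negative, from -0.89 for Cd3e to 0.62 for Lyz2. Of the endothelial genes 5 were positive and 2 negative, from -0.99 for Vwf to 0.61 for Cldn5. Tagln of the smooth muscle and pericyte list, at 0.48, was higher without overlap. Of the 8 fibroblast genes 4 were positive and 4 negative, with a median of -0.070, from -0.55 for Thy1 to 0.70 for Cd34, which alone of them did not overlap. The Cd34 value is the mean of 2 probes, at 0.96 and 0.44, and a dimmer probe outside it gave -0.057. The white adipocyte list, with 5 of 6 measured, ran from 0.88 to 1.12 in summer and from 0.70 to 0.97 in torpor. Of its genes Agt (-0.75) and Psat1 (-0.54) were lower without overlap, Lep and Hoxc9 were at -0.090 and -0.15, and Hoxc8 was at 0.67. The 3 Agt probes gave -2.0, -0.28 and 0.013. The 3 Psat1 probes gave -1.58, at a signal percentile of 97.7, and -0.15 and 0.11. For 4 of 8 general adipocyte markers the mean ran from 0.65 to 0.97 in summer and from 0.70 to 1.09 in torpor. Cd36 of that list, at 0.45, was higher without overlap. The brown adipocyte list, with 7 of 10 measured and Ucp1 not analysed here, ran from 0.19 to 0.50 in summer and from -0.10 to 0.24 in torpor. Of its 7 genes 2 were positive and 5 negative, with a median of -0.44, from -0.70 for Elovl3 to 0.56 for Prdm16. Esrrg, at 0.44, was higher without overlap, and the groups overlapped for the others. The 3 Esrrg probes gave 1.09, 0.27 and -0.032. Cidea, at -0.22 ± 0.20 (SE), was measured by 3 probes at signal percentiles of 27.1, 54.7 and 78.7. The part of any of these cells in the matrix values was not tested.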

How the data were processed

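RNA of 8 animals was read in 11 columns on each of 4 membranes with 9600 probes each. The authors deposited linear intensity values that, as the values show, had been divided by each column's median with empty cells ranked lowest. How images were read and background was treated is not stated in the sources used here, and empty cells (3.45%) were left missing. Gene symbols came from GEO's platform annotation, of an older date. It gave 1 symbol for 25070 probes, several for 941 and none for 12389. Among those with several, 10 include a matrix gene and were left out. Squirrel gene names and neighbours came from the RefSeq assembly mUroPar1.hap1.

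Values were taken to log2 and duplicate columns averaged. With limma 3.58.1 (R 4.3.3), lmFit and eBayes compared the groups on each membrane separately. A probe needed at least 2 animals with a value in both groups, and p-values were adjusted by Benjamini-Hochberg over all 4 membranes, with a threshold of 0.05. A second fit used, per gene and animal, the mean over probes with values in all 8 animals. It held 167 of the 189 member probes and 82 of 84 genes, leaving out Adamts6 and Lama2. A further 7 member probes had too few values for any test. Both fits were tested on simulated data.

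Named genes were the 12 probes and 12 genes with the smallest p, genes with at least 3 probes of a single sign, a fixed set of matrix genes and the 6 genes outside the rule with the smallest p. Others were named for their role groups after their values were seen. The members and lists were chosen with earlier results of these data known. Alternatives covered scaling, a floor, dim probes, the variance model, duplicates, a replicate block over replicates 1 to 3, the probe rule and each animal left out.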

Additional observations from a re-analysis of the deposited data

Results flagged for a closer look

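In 4 of the 38 named genes a torpid animal stood apart from the other 4, its gap to the nearest of them taking most of the range of the group. Chance alone gives such a gap in about 1 in 20 groups. Torpid animal 3 had an Adamts1 level of -0.37, and the others lay between 0.083 and 0.11. Torpid animal 4 had a Sparc level of 1.90, and the others lay between 2.34 and 2.51. For Col4a2 it was torpid animal 5, at 3.01 against 2.69 to 2.76. For Thbs2 it was torpid animal 2, at -0.33 against -0.72 to -0.61. Without these animals the differences were 0.10 for Adamts1, -0.69 for Sparc, -0.67 for Col4a2 and 0.26 for Thbs2, on the log2 scale.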

How the results depend on the processing

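By limma no member gene passed in any of the 19 alternatives, and 0 to 1 member probes passed when each animal was left out in turn, the 1 being Col14a1 without summer animal 1. The median over member probes was -0.10 with the first duplicate only and ran from -0.0999 to -0.062 when each animal was left out. Of all probes 117 passed, against 63 with cyclic loess, 209 without the dimmest 20%, 228 with a trended robust prior, 176 with the first and 38 with the second duplicate only, and 17 to 347 with an animal left out. Of all genes 20 passed, against 7 with cyclic loess, 38 with the brightest probe of each gene and 0 to 93 with an animal left out. With the replicate number as a block, which also left out torpid animals 4 and 5, 29 probes and 0 genes passed, no member among them, the median member difference was -0.029 and Sparc stood at -0.67. The numbers were taken to name different animals in summer and in torpor. Same-numbered animals had deviations correlated at 0.020, 0.0073 and 0.0076 over 34505 probes. With no known pair to compare, these correlations cannot show whether the animals differ. Averaging clones first and leaving out the brightest 2% were chosen after seeing the data.

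Genes near 0 changed sign. With the second duplicate only Adamts1 was -0.030, Nid1 0.10, Timp1 -0.16 and Timp3 -0.17, and with the first only Col6a1 was 0.10 and Timp4 0.13. With the block and without torpid animals 4 and 5, Adamts1 was -0.056 and Timp1 -0.047. With the brightest probe Bgn was -0.16, Lamc1 0.077 and Timp1 -0.050, and with clones averaged first Timp1 was -0.036. Under cyclic loess Nid1 was 0.0081, Timp3 -0.033 and Timp4 0.0044. Timp3 was -0.0039 with quantile normalization, -0.052 with the floor and -0.12 without the dimmest 20%, and Dcn was -0.0051 with the floor. Leaving out each animal gave Adamts1 -0.11 to 0.10, Bgn -0.094 to 0.32, Col4a1 -0.29 to 0.15, Col6a1 -0.42 to 0.30, Dcn -0.016 to 0.24, Mmp9 -0.42 to 0.13, Nid1 -0.23 to 0.35, Timp1 -0.082 to 0.14 and Timp3 -0.13 to 0.20. The causes were not tested. Of the 189 member probes 36 lay in the dimmest 20% of their membranes, where empty cells and a floor matter most.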
